A study of Mus musculus with 8 samples.

Results

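The microRNAs mmu-miR-204 and mmu-miR-211, called miR-204 and miR-211 below, form a small family with a shared seed, and their level was followed here in obstructed and unobstructed mouse kidneys. Both were taken by name from the array design, which gave 2 family members among 611 mouse miRNAs, and 1 of them, miR-204, gave signal above background. The tissue came from ICR mice, an outbred strain, in which one ureter had been tied off and the kidneys were removed 7 days later. The 4 UUO samples (unilateral ureteral obstruction) were the obstructed kidneys, and the 4 control samples were contralateral kidneys whose ureter was not tied. The controls therefore came from operated mice too, and the labels give no genotype, drug, age or sex for either group. They also do not say whether kidneys of a group came from separate mice, or whether a UUO and a control kidney came from the same mouse. The p-values treat the samples as unrelated and measure only the spread between them. The question addressed was whether the family's level differs in a kidney whose outflow is blocked.

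A miRNA guides the silencing complex to messenger RNAs through its seed, the bases at positions 2 to 8, and lowers the output of transcripts that pair with it. The gene of miR-204 lies in an intron of Trpm3 and that of miR-211 in an intron of Trpm1, both of which encode cation channels of the melastatin group. Each can therefore be made from its host's transcript, which was not measured here. miR-204 is known from epithelia of the kidney, the choroid plexus and the eye, where it represses regulators such as Meis2. miR-211 is known mainly from pigment cells, in which the factor MITF drives Trpm1.

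The mature 5p strands are shown because the measurement rests on telling them apart, with the seed in capitals. They are RefSeq sequences on GRCm38.p6, matched to the array names by the convention that these names without a suffix mean the 5p strand, since the files hold no probe sequences.
mmu-miR-204-5p: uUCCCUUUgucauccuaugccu
mmu-miR-211-5p: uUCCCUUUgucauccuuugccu
Counted from the 5′ end of miR-204-5p, the only difference between them was A17U, which left 21 of 22 bases identical and the seed untouched. Of 1738 mature mouse miRNAs in the table, 3 had this seed, namely these and miR-7670-3p, which was not on the array. A target carries its complement, AAAGGGA. Apart from miR-211-5p, the sequence nearest to miR-204-5p was miR-7093-3p, which was 7 edits (substitutions, insertions or deletions) away.

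The precursors are shown because they differ far more than the mature 5p strands do, with that strand in capitals.
Mir204: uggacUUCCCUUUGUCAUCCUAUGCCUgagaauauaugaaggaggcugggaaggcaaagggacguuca
Mir211: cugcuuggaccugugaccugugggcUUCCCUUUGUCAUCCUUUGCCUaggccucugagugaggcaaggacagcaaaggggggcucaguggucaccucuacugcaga
The hairpin of miR-204 spans 68 bases at chr19:22750605-22750672 on the plus strand, inside the span of Trpm3. That of miR-211 spans 106 bases at chr7:64205806-64205911 on the plus strand, inside the span of Trpm1. The opposite, 3p strands differed at 7 of 21 positions, and the array carried no probe named for either of them.

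Each sample had its own array with 1 colour, and all 8 arrays shared 1 slide and 1 scan. Overall signal, read as the 75th percentile over probes above background on every array, was 514 to 1595 intensity units in UUO kidneys and 417 to 582 in control kidneys. Each array was divided by this value, so the levels below are set against that array's own bright miRNAs. Between 243 and 310 miRNAs were above background in UUO kidneys and between 228 and 240 in control kidneys. UUO kidney 2 stood apart from the other obstructed kidneys. The summed scaled signal of 5 leukocyte miRNAs was 1.30 in UUO kidney 2 and 5.32 to 6.09 in the other UUO kidneys, against 1.35 to 1.84 in control kidneys. That of 9 tubule epithelial miRNAs was 33.4 to 49.7 in UUO kidneys, with kidney 2 the highest, against 61.6 to 65.7 in control kidneys. Such a sum weighs its brightest members most and does not stand for each of them. The log2 changes (UUO minus control) of the 8 members tested ran from -1.31 to 0.15. Of those 9, all but miR-215 were above background on every array. Among miRNAs known from other tissues, the liver miRNA miR-122 was above background on no array. However, 2 of 3 brain miRNAs and 1 of 4 striated muscle miRNAs were above background on every array. The pancreas miRNA miR-375 was so on some arrays but not on all. How far cell composition enters the levels below was not tested.

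miR-204 was above background in every kidney, and its scaled level overlapped between the groups. The scaled signal was 0.300, 0.155, 0.287 and 0.232 in UUO kidneys 1 to 4, against 0.217, 0.222, 0.322 and 0.279 in control kidneys 1 to 4. UUO kidney 2 was the lowest of the 8 and control kidney 3 the highest, and the groups overlapped. On the log2 scale the level was -2.08 ± 0.43 in UUO kidneys and -1.96 ± 0.27 in control kidneys (SD, n = 4 each). The log2 change, UUO minus control, was -0.12 ± 0.25 (SE), and two-sided tests gave p = 0.755 with limma after adjustment and p = 0.686 by exact permutation, against a smallest possible 0.0286. The 95% interval of the change ran from -0.69 to 0.45, so levels from 0.622-fold to 1.36-fold of the control level lie within it. In whole kidneys, fewer cells that make a miRNA and less of it per cell cannot be told apart.

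**Figure D1:**
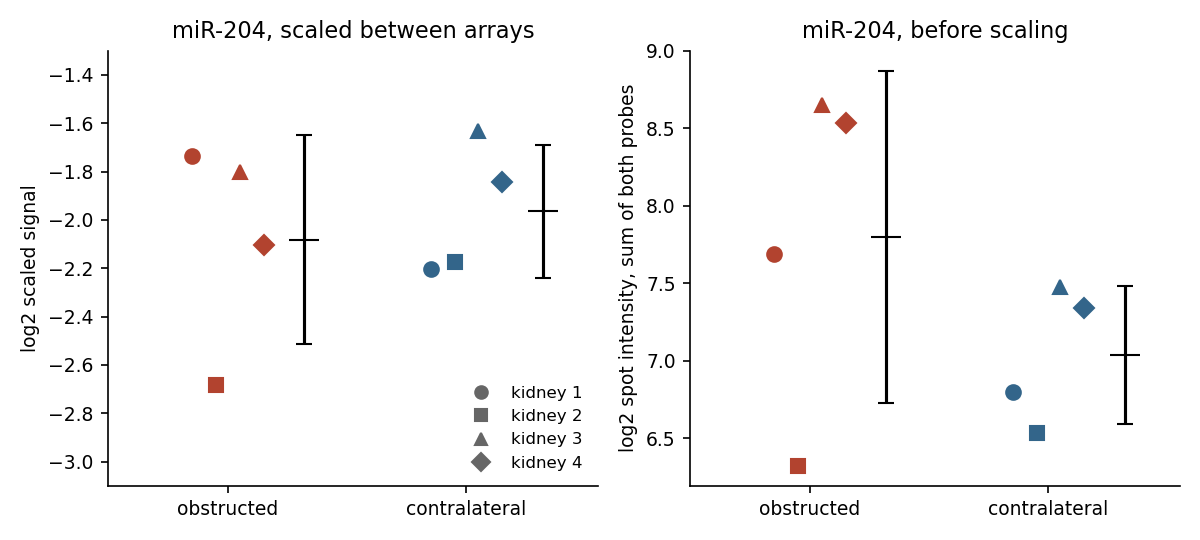
The level of miR-204 by kidney, obstructed (UUO) left of contralateral (control), as log2 scaled signal (left panel) and as log2 summed spot intensity before scaling (right panel). Each symbol is 1 array, with its shape giving the kidney number, and the bars are the mean ± SD; UUO kidney 2 is the lowest point in both panels, and the groups overlap in both.

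Before scaling the order was different. The summed intensity of the miR-204 probes was 206.8, 79.97, 402.3 and 370.5 units in UUO kidneys 1 to 4, against 111.3, 92.5, 178 and 162 units in control kidneys 1 to 4. UUO kidneys 1, 3 and 4 were brighter than every control kidney, and UUO kidney 2 was dimmer than every control kidney. The log2 difference was 0.76 (7.80 ± 1.07 in UUO and 7.04 ± 0.45 in control kidneys, SD, n = 4 each), and its two-sided exact permutation p was 0.229. Across all tested miRNAs the median change without scaling was 0.74, and with scaling it was -0.14. Relative to that median miR-204 lay at 0.022 either way. That distance could not differ, since dividing each array by a constant moves all miRNAs above the floor alike. The sign of the miR-204 change turned with the scaling.

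The array read miR-204 with 2 probes of 10 spots each. The brighter probe, A_54_P2396, had mean spot intensities of 181.5, 68.5, 341 and 309 in UUO kidneys 1 to 4, against 94.7, 77.6, 148 and 132.5 in control kidneys 1 to 4. The dimmer probe, A_54_P2397, had 25.2, 11.4, 61.0 and 61.2 in UUO kidneys, against 16.6, 14.9, 29.6 and 29.8 in control kidneys. They ranked the arrays much alike, with a Pearson correlation of 0.857 over the 8 arrays on the scaled log2 scale, given as a description, since the probes share each array's labelling and scaling. The dimmer probe supplied 12.2% to 16.5% of the summed signal in UUO kidneys and 14.9% to 18.4% in control kidneys. After scaling, the log2 change was -0.085 for the brighter probe (exact permutation p = 0.829) and -0.30 for the dimmer one (exact permutation p = 0.343). Neither difference exceeded the spread between kidneys. In UUO kidney 2 the dimmer probe lay near background, with 6 of its 10 spots marked above it. Its 11.4 units there compare with 10.5 for the dimmest probe that counted as above background on that array.

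Repeat spots gave the spot-to-spot error of miR-204 within an array, which leaves out labelling, hybridization and scaling. Of its 20 spots per array, 18 to 20 entered the mean in UUO kidneys and 19 in each control kidney after spots marked as outliers were left out. The standard error of the summed signal over these spots was 2.39% to 7.18% in UUO kidneys and 1.51% to 3.06% in control kidneys. On the log2 scale the largest was 0.10, in UUO kidney 3. In that kidney the brighter probe's spots had a coefficient of variation of 25.8%, against 3.57% to 11.4% for this probe on the other arrays. With the median of the spots in place of their mean the change was -0.091.

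Among the 222 miRNAs tested, miR-204 lay in the middle. Its change was the 116th from the lowest, and 27 miRNAs had a change nearer to 0. miR-204 was the only family member that could be tested, and 0 of 1 passed limma at an adjusted p under 0.05, beside 14.9% of all tested miRNAs, 13.5% lower and 1.35% higher. The arrays of one group lay wholly beyond those of the other for 23% of tested miRNAs, and for miR-204 they overlapped.

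**Figure D2:**
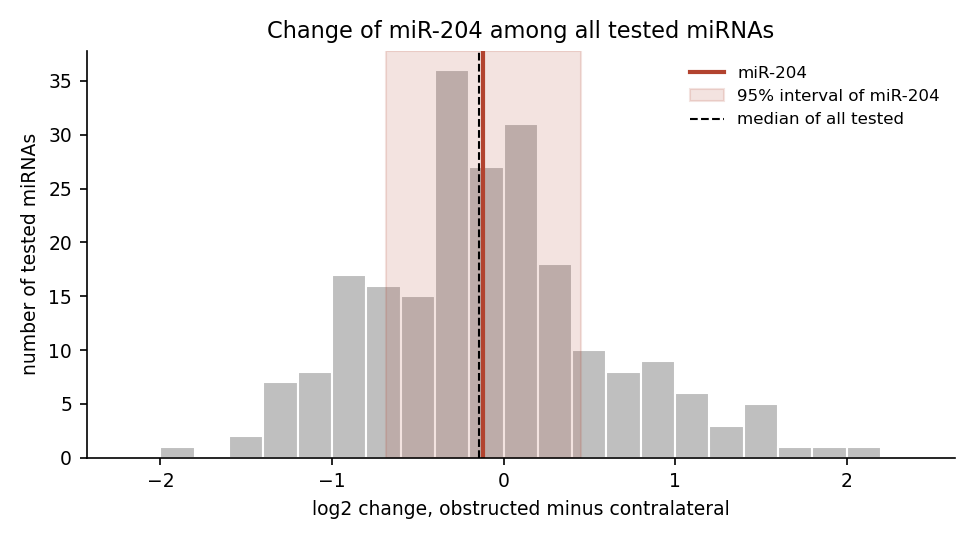
Log2 changes (UUO minus control) of the 222 tested miRNAs on the horizontal axis and the number of miRNAs per bin on the vertical axis. The solid line is miR-204 at -0.12, the shaded band its 95% interval from -0.69 to 0.45, and the dashed line the median of all tested miRNAs at -0.14.

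The sign of this change also turned when UUO kidney 2 was left out. Relative to the control mean, miR-204 was at 0.23, 0.16 and -0.14 on the log2 scale in UUO kidneys 1, 3 and 4 and at -0.72 in UUO kidney 2. Leaving out UUO kidney 2 gave a change of 0.082 ± 0.18 (SE, n = 3 and 4, limma adjusted p = 0.718), while 50.9% of tested miRNAs passed the same threshold in that comparison. This array was chosen on its values, so the comparison without it stands beside that of all 8 arrays and does not replace it. Slide position was a further difference between kidneys, since kidneys 1 and 2 of each group lay in slide row 1 and kidneys 3 and 4 in slide row 2. Both control kidneys of row 1 had less miR-204 than both of row 2. Within row 1 the change was -0.021 and within row 2 it was -0.22, each from 2 against 2 arrays (adjusted p = 0.968 and 0.439 by limma).

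miR-204 was set against other miRNAs known from kidney epithelium to ask whether they moved with it. miR-192 and miR-194, made together from shared transcripts and abundant in tubules, were both called lower, and miR-215, of the same family as miR-192, was not above background. miR-192, at -1.27 ± 0.26 (SE, n = 4 each, limma adjusted p = 0.0213), was an example. Of miR-30a to miR-30e, a family abundant in tubules and podocytes, 2 of 5 were called lower, among them miR-30a at -0.84 ± 0.20 (limma adjusted p = 0.0331), with a median of -0.84. Of the miR-200 family, which represses Zeb1 and Zeb2, 2 of 5 were called lower and the median was -0.59, with miR-200b at -0.59 ± 0.18 (limma adjusted p = 0.0649). Its members did not all lie on one side of 0, with miR-141 at 0.14 and miR-200c at 0.15 on the log2 scale, both chosen after their values were seen and neither called. Of all 222 tested miRNAs, 13.5% were called lower and the median was -0.14. These calls depended on the processing, and of 25 alternatives miR-192 passed in 12 and miR-30a in 10. Without scaling miR-192 was at -0.39 and miR-30a at 0.039.

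The difference between the change of miR-204 and the mean change of each list was then tested itself, in 3 comparisons. The lists were chosen with earlier results of these data known, which limits what these p-values can show. Against miR-192 and miR-194, miR-204 lay 1.60, 0.21, 1.29 and 1.60 log2 units above the control mean difference in UUO kidneys 1 to 4, against -0.38, 0.14, 0.36 and -0.11 in control kidneys 1 to 4. UUO kidneys 1, 3 and 4 were above all control kidneys, and UUO kidney 2 was among them. The mean difference was 1.17, for which the two-sided exact permutation p was 0.0571, and 0.171 after Benjamini-Hochberg adjustment over the 3 comparisons, so it did not pass.

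Against the miR-30 list the values were 1.46, -0.57, 1.28 and 1.13 in UUO kidneys, against -0.075, -0.44, 0.39 and 0.13 in control kidneys. The UUO kidneys other than kidney 2 again lay above all control kidneys. The mean difference was 0.82 (exact permutation p = 0.143, adjusted 0.214). Against the miR-200 list they were 0.42, -0.62, 0.56 and 0.47 in UUO kidneys, against -0.17, -0.32, 0.15 and 0.33 in control kidneys, with a mean difference of 0.21 (exact permutation p = 0.543, adjusted 0.543). With 4 against 4 arrays no p below 0.0286 is possible. When UUO kidney 2 was left out, the differences were 1.49 from miR-192 and miR-194 and 1.29 from the miR-30 list, for both of which exact permutation gave p = 0.0286, the minimum for 3 against 4 arrays, and 0.0429 adjusted. UUO kidney 2 was left out after its values were seen, and it was the lowest UUO array in these same differences. The other UUO kidneys were already seen to lie above all control kidneys. These p-values therefore describe that choice and are no support for a difference. The difference from the miR-200 list was then 0.48 (exact permutation p = 0.0571, also 0.0571 adjusted). With normexp background correction on all 8 arrays the differences were 0.55 from miR-192 and miR-194, 0.22 from the miR-30 list and -0.23 from the miR-200 list. Because these are differences within an array, dividing each array by a constant does not move them.

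**Figure D3:**
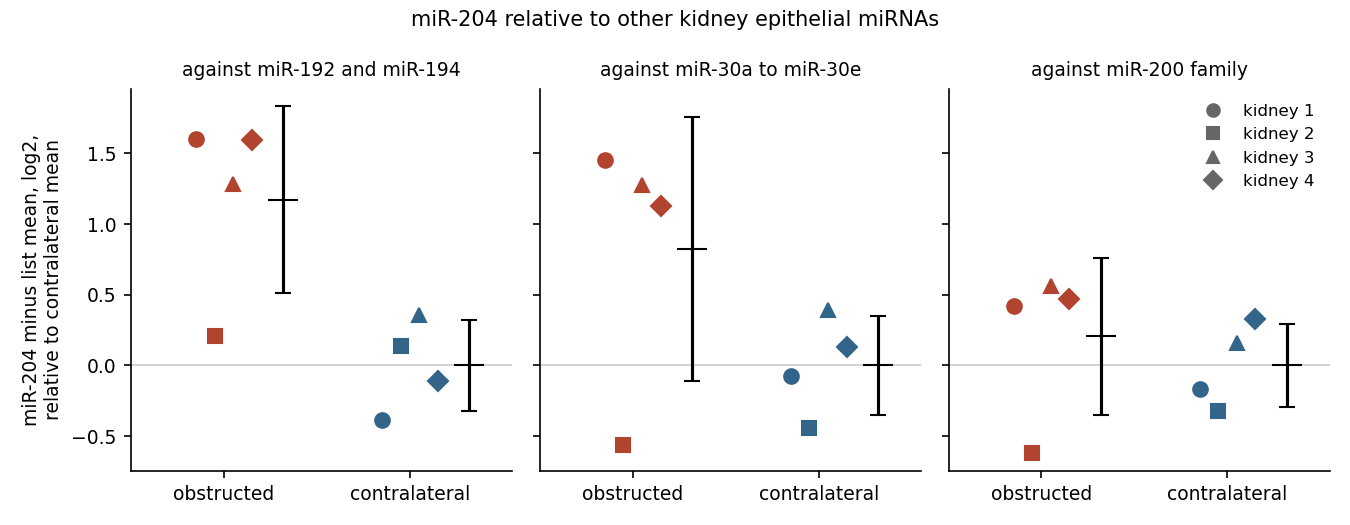
Log2 level of miR-204 minus the mean log2 level of miR-192 and miR-194 (left), of miR-30a to miR-30e (middle) and of 5 miR-200 family members (right), each relative to the mean of the control kidneys. Each symbol is 1 kidney, obstructed (UUO) left of contralateral (control), with mean ± SD bars; UUO kidneys 1, 3 and 4 lie above every control kidney in all 3 panels, and UUO kidney 2 does not.

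The tested miRNAs whose scaled log2 level ran most like that of miR-204 over the 8 arrays were miR-340-3p (Pearson r = 0.958), miR-361 (r = 0.918), miR-7a (r = 0.865), miR-532-3p (r = 0.862) and miR-152 (r = 0.824). These are the 5 highest of 221 correlations, whose median was 0.159, and all share the arrays and their scaling. None of the 5 passed the test between the groups, with log2 changes of -0.071 for miR-340-3p, -0.073 for miR-361, -0.31 for miR-7a, 0.020 for miR-532-3p and -0.011 for miR-152, and limma adjusted p-values from 0.257 to 0.970. In miR-340-3p the scaled signal was 0.145, 0.103, 0.136 and 0.115 in UUO kidneys 1 to 4, against 0.122, 0.119, 0.150 and 0.131 in control kidneys 1 to 4. As for miR-204, UUO kidney 2 was the lowest and control kidney 3 the highest. Without UUO kidney 2 the correlation was 0.942 for miR-340-3p and 0.860 for miR-361, still the first and the second of all, but 0.591 for miR-7a, 0.612 for miR-532-3p and 0.439 for miR-152, so the likeness of these 3 rested largely on that array.

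**Figure D4:**
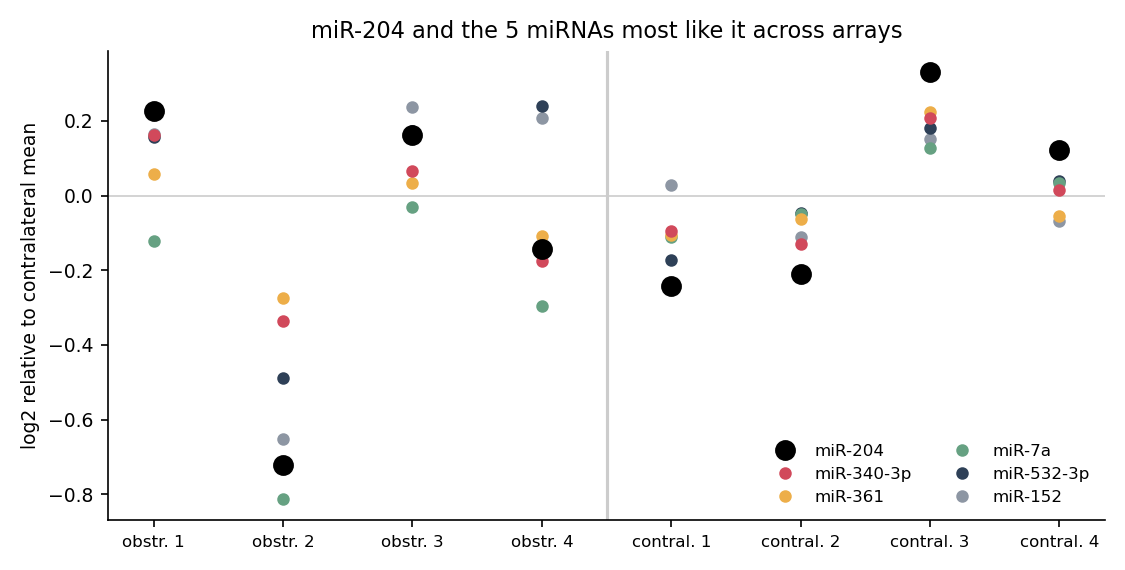
Scaled log2 level of miR-204 (large black points) and of the 5 miRNAs most correlated with it, each relative to its mean in the control kidneys, for UUO kidneys 1 to 4 (obstr.) and control kidneys 1 to 4 (contral.). All 6 are at their lowest of the 8 arrays in UUO kidney 2, and within the control kidneys all 6 are at their highest in kidney 3.

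miR-211 was not above background on any of the 8 arrays. It was read with 4 probes of 5 spots each, and the mean intensity of a probe was between -0.903 and 2.53 units in UUO kidneys and between -0.855 and 3.33 units in control kidneys. Negative control spots averaged 0.922 to 1.29 units in UUO kidneys and 0.954 to 2.02 units in control kidneys, with SDs between spots of 1.85 to 2.12. The dimmest probe that counted as above background on an array had 9.59 to 11.3 units in UUO kidneys and 9.92 to 11.8 units in control kidneys. Every miR-211 probe was thus below what the arrays could call, and no fold change or test is given. The level of miR-211 was below the limit of the arrays in both groups, which does not show that it was absent.

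The miR-211 probes also bear on the reading of miR-204, since the mature strands differ only at A17U. In UUO kidneys 3 and 4, where the brighter miR-204 probe had 341 and 309 units, no miR-211 probe exceeded 2.53 units. In UUO kidney 2, with 68.5 units on that probe, none exceeded 1.88. The summed miR-211 signal was highest in control kidney 3, with its probes at 2.32 to 3.33 units beside 148 units on the brighter miR-204 probe. Negative control spots were also brightest there, averaging 2.02 units with an SD between spots of 2.08. The signal of the miR-211 probes thus stayed within the spread of the negative control spots while miR-204 varied, and no carry-over of miR-204 onto them was detectable. The reverse, miR-211 read by the miR-204 probes, could not be measured.

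**Figure D5:**
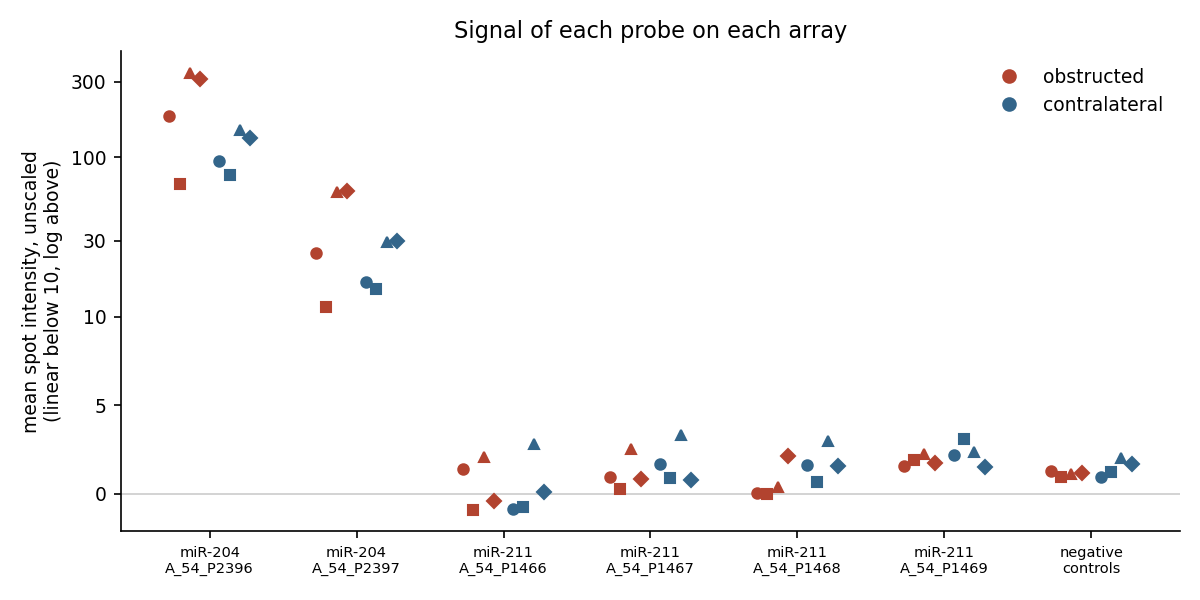
Mean spot intensity before scaling (vertical axis, linear below 10 units and logarithmic above) of the 2 miR-204 probes, the 4 miR-211 probes and the negative control spots, with obstructed (UUO) arrays left of contralateral (control) arrays. Each point is 1 array. The miR-204 probes lie between 11.4 and 341 units and the miR-211 probes between -0.903 and 3.33, around the negative control means.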

How the data were processed

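The deposited values were spot intensities of 1-colour (Cy3) Agilent arrays, made by the authors with Feature Extraction, version 10.7.3.1 per the file headers and 10.1.1 per the submitters' processing notes. That software's local background subtraction, spatial detrending and outlier marking are recorded in the headers. No scaling between arrays was found, and the series matrix equalled the processed spot intensities exactly.

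Spots of a probe were averaged without outliers (1759 probes). A probe was above background when over 50% of its spots were so marked, and a miRNA when at least 1 probe was. The 371 probes above background everywhere gave each array's divisor, their 75th percentile, then probes were summed, a floor of 0.0213 was set and log2 taken. The 222 miRNAs above background on all 4 arrays of a group were compared with limma 3.58.1 (R 4.3.3) in two-sided tests, Benjamini-Hochberg adjusted, at a threshold of 0.05. Single values had exact permutation tests over 70 assignments. The fit was tested on simulated data. Tables were made with pandas 2.3.3 and numpy 2.4.6 in Python 3.11.15, and plots with matplotlib 3.10.9. Array number and signal over background limit the precision.

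The members and lists were chosen with earlier results of these data known. The named miRNAs were the members, the 5 most correlated with miR-204, and the member of each list with the highest mean signal. Alternatives covered scaling, background correction, signal, filter, probe summary, floor, weights, single arrays, the replicate number and slide row, with the median of spots and looser detection of miR-211 added after seeing the data.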

Additional observations from a re-analysis of the deposited data

Results flagged for a closer look

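In 2 of 14 groups of 4 arrays examined, the farthest array lay beyond Dixon's 95% critical value of 0.829, and chance gives about 1 group in 20. The 14 groups were measured on the same arrays and all hold miR-204. They are not independent, so their count cannot be set against that rate. Both groups beyond the critical value concern UUO kidney 2. Its miR-204 level minus the mean of the miR-200 list stood at -0.62 log2 units from the control mean, while the other UUO kidneys stood at 0.42 to 0.56. Its miR-204 level minus the mean of the miR-30 list stood at -0.57, while the other UUO kidneys stood at 1.13 to 1.46. The same array had the lowest scaled miR-204 of the 8, and for that level on its own the ratio of gap to range was 0.611, under the critical value. The leukocyte miRNAs of this kidney were at 1.30 summed scaled signal, as given above, and their part in these values was not tested.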

How the results depend on the processing

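Under 25 alternatives miR-204 never passed the threshold (limma adjusted p from 0.183 with normexp to 1 without a filter). Its log2 change ran from -0.62 with normexp to 0.76 without scaling. With normexp the median change of all tested miRNAs was also -0.62, and miR-204 lay at 0.0054 relative to it. Other alternatives moved miR-204 away from their median. It lay at 0.30 relative to it with array weights, 0.25 without UUO kidney 2 and -0.12 without UUO kidney 3. The direction of the miR-204 change held in 22. It turned without scaling, with array weights (0.098) and without UUO kidney 2, where leaving out each array in turn gave -0.23 to 0.082. With normexp the difference from the miR-200 list turned to -0.23, and those from miR-192 and miR-194 and from the miR-30 list were 0.55 and 0.22. Leaving out each array in turn gave differences of 1.03 to 1.49 from miR-192 and miR-194 and of 0.61 to 1.29 from the miR-30 list, and the highest, without UUO kidney 2, were the ones that passed. With outlier spots kept, 1 array, control kidney 2, had a miR-211 spot above background.

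The 33 calls over all miRNAs depended on the processing. There were 0 with scaling over all mouse probes (limma, 56 at an unadjusted p under 0.05), 0 with normexp (54), 0 within slide row 1 (1), 3 with quantile normalization, 3 without scaling, 3 with the summed gene signal, 17 without a filter, 69 within slide row 2 and 138 with array weights, and 0 to 113 when each array was left out (54 to 124 at an unadjusted p under 0.05). 

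With the replicate number as a block there were 0 calls (67 at an unadjusted p under 0.05), and miR-204 stayed at -0.12 (limma adjusted p = 0.697). The numbers were not taken to pair the kidneys, since the labels do not say whether they do. The deviations of same-numbered kidneys correlated at -0.35, 0.22, 0.62 and 0.015, which cannot decide this.

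Among other named miRNAs, none of them called in these settings, the change turned without scaling for miR-200b (0.29), miR-30a (0.039), miR-7a (0.57), miR-340-3p (0.81), miR-361 (0.81) and miR-152 (0.87). It turned with the summed gene signal for miR-340-3p (0.11), miR-361 (0.042) and miR-152 (0.10), with array weights for miR-340-3p (0.058), miR-361 (0.048) and miR-152 (0.21), and with quantile normalization for miR-152 (0.0025) and miR-532-3p (-0.076). miR-532-3p turned with normexp (-1.10), with the mean of log2 probe values (-0.0042) and within slide row 1 (-0.058). miR-340-3p turned within slide row 1 (0.025), and miR-152 with the median of spots (0.0080) and within slide row 2 (0.18). Leaving out arrays gave -0.094 to 0.20 for miR-152, -0.15 to 0.017 for miR-340-3p, -0.12 to 0.0015 for miR-361 and -0.054 to 0.19 for miR-532-3p. The cause of these turns was not tested. miR-211 lay at the floor on all 8 arrays, so the planned test of miR-204 against it was not run, and its fit without a filter (limma adjusted p = 1) carries no information.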
